A study of Homo sapiens with 14 samples.

Results

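WM9, an established human melanoma cell line, was treated with PLX4720, an inhibitor of the BRAF kinase, at 10 µM for 24 h and compared with cells of the line given DMSO, the solvent, for 96 h. These were 4 arrays of the 14 in the series, 2 in each group, chosen by their labels and described in the series' design text as biological replicates. The other 10 arrays held PLX4720 at 12, 48, 60, 72 and 96 h and entered the model fit. All cells came from 1 line and were grown in RPMI-1640 medium. The only DMSO control was taken at 96 h, so hours in culture differed along with the drug and the 2 cannot be told apart in this comparison.

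BRAF signals through the kinases MEK and ERK. In melanoma cells with an activating BRAF mutation, ERK signalling sustains transcription of its own feedback inhibitors, the Sprouty proteins and the dual specificity phosphatases. It also sustains transcription of growth genes such as the cyclin D1 gene. Inhibitors of mutant BRAF are known to lower ERK output and stop the cell cycle in G1, and in melanocytic cells the lineage factor MITF drives the mitochondrial coactivator PGC1α, encoded by PPARGC1A.

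Transcripts of 13550 genes were tested, each by its brightest probe above background. Values are log2 signals after background correction and quantile normalization, so a difference of 1 is a doubling, and folds are those of normalized signals. By limma at a Benjamini-Hochberg adjusted p of 0.05, 2585 genes differed between 24 h and DMSO (19.1%), of which 1430 were higher (10.6%) and 1155 lower (8.52%). Groups of arrays did not overlap for 52.6% of the genes tested, so separation of 2 arrays from 2 is common. Among the calls, 551 were more than 2-fold higher and 638 more than 2-fold lower. Counts against DMSO for the gene lists below are to be read beside the shares of all genes, 10.6% higher and 8.52% lower. The split between higher and lower depended on the scaling. Median scaling moved the median of all genes to -0.12, against 0.09 with quantile normalization, and gave 549 higher and 1564 lower genes. Counts also fell to 1188 with array weights, which let the spread differ between arrays, to 1191 without 24 h replicate 2 and to 1609 without 24 h replicate 1.

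Replicates at 24 h were closer to each other than those in DMSO. Over all genes, replicate 1 minus replicate 2 had a standard deviation of 0.318 at 24 h and 0.554 in DMSO, and 0.945% of genes at 24 h and 6.83% in DMSO lay over 2-fold apart between replicates. Median raw signals were 315.8 and 253.6 on the 24 h arrays, against 365.8 and 369.8 on the DMSO arrays, so background level and treatment cannot be told apart. At 24 h 43.4% and 40% of probes were above background, against 43.8% and 42.8% in DMSO. The slide and the scan of each array were not used here, and their part in the results was not tested. With 2 arrays a group, precision is limited throughout. Standard errors (SE) and adjusted p values rest on a spread per gene pooled over all 7 groups. Replicates stood further apart in DMSO than at 24 h. In comparisons with DMSO the standard errors can therefore be too small and the adjusted p values too low.

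**Figure D1:**
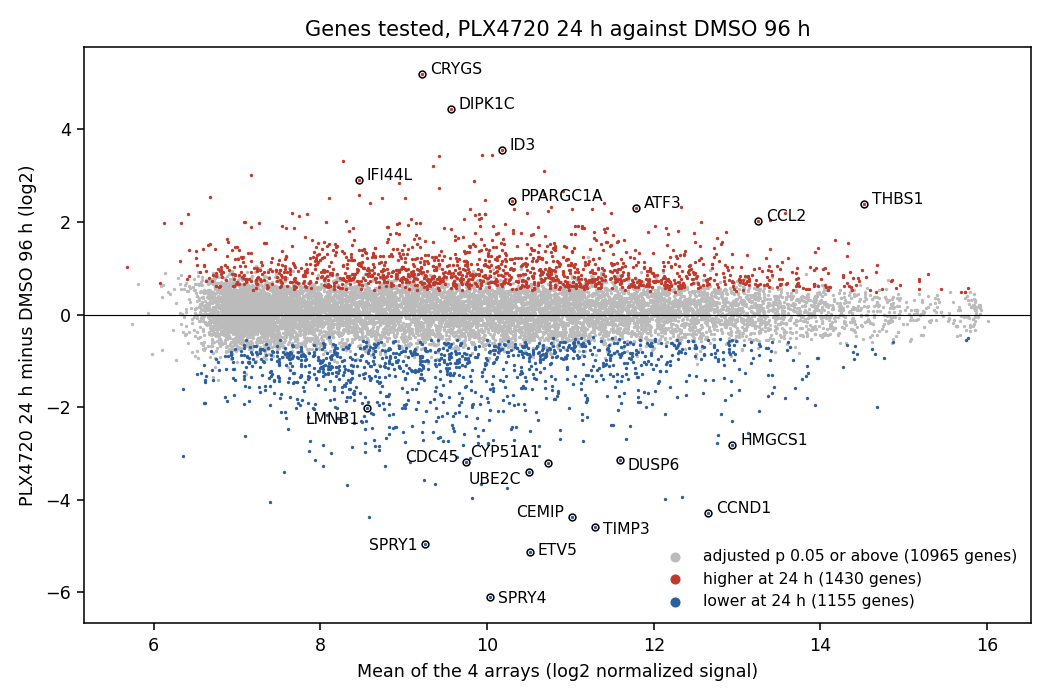
Log2 difference between PLX4720 24 h and DMSO 96 h (vertical axis) against the mean log2 normalized signal of the 4 arrays (horizontal axis) for the 13550 genes tested. Red points mark the 1430 genes called higher at 24 h and blue points the 1155 called lower; 20 genes described in the text are circled, from SPRY4 at -6.10 to CRYGS at 5.21.

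Genes of ERK output were lower in 21 of 25 cases. SPRY4, a Sprouty feedback inhibitor of receptor tyrosine kinase signalling, had log2 signals of 6.79 and 7.18 at 24 h, against 13.09 and 13.08 in DMSO. Neither 24 h array showed it above background, and the fall was at least 57.0-fold (log2 fold change -6.10, SE 0.27, adjusted p by limma 3.36e-08). ETV5, a PEA3 transcription factor induced by ERK, had 7.93 and 7.97 at 24 h, against 12.96 and 13.18 in DMSO, a 34.7-fold fall (SE 0.17 on the log2 scale). Its relative ETV4 was at least 6.84-fold lower, being above background on neither 24 h array. CCND1, which encodes cyclin D1, the partner of CDK4 and CDK6, had 10.50 and 10.52 at 24 h, against 14.96 and 14.63 in DMSO. CCND1 was 19.4-fold lower (log2 fold change -4.28, SE 0.17, adjusted p = 1.37e-08). For each of these genes the groups were separated by far more than the distance between replicates.

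Among the other feedback genes, SPRY1 fell at least 22.4-fold, to signals not above background on the 24 h arrays. The fall of SPRY2 was 15.8-fold (log2 fold change -3.98, SE 0.23) and DUSP6, a cytoplasmic phosphatase of ERK, 8.79-fold lower (SE 0.19). MYC, a transcription factor of growth, was 5.53-fold lower (log2 fold change -2.47, SE 0.18, adjusted p = 1.27e-06), with no overlap between the groups. FOSL1, a subunit of AP-1, was 4.08-fold lower, EPHA2, an ephrin receptor, 4.07-fold, and EGR1, an immediate early factor above background on 1 of the 24 h arrays, 3.11-fold. None of the 25 rose, and the median was -1.88 against 0.09 for all genes. The members that did not pass were SPRED1 (-0.76), FOS (-0.33), IL11 (-0.19) and PHLDA1 (0.46). The number that fell was 21 or 22 under median scaling, array weights and without any single array.

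**Figure D2:**
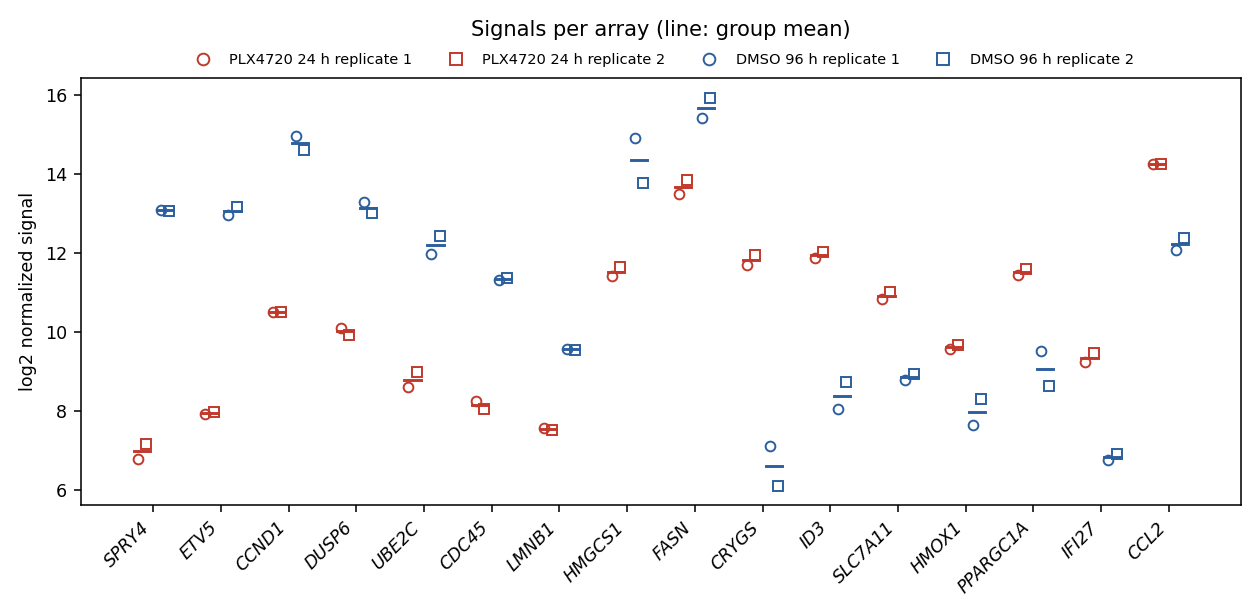
Log2 normalized signal (vertical axis) of 16 genes on each array; red symbols left of each tick are PLX4720 24 h, blue symbols right of it DMSO 96 h, circles replicate 1, squares replicate 2 and lines the group means. No gene shown has overlapping groups; SPRY4 lies at 6.79 and 7.18 at 24 h and at 13.09 and 13.08 in DMSO, and ID3 at 11.88 and 12.04 at 24 h and at 8.06 and 8.74 in DMSO.

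Outside that list, large falls in fitted signal were those of TIMP3, COL15A1, CEMIP, PLA2G3 and PHLDA2, with no order given to a probe not above background. TIMP3, a tissue inhibitor of metalloproteinases bound to matrix, had 9.12 and 8.89 at 24 h, against 13.45 and 13.72 in DMSO, and was 23.9-fold lower (log2 fold change -4.58, SE 0.22). CEMIP, which takes part in breakdown of hyaluronan, was 20.7-fold lower (SE 0.25). COL15A1, a basement membrane collagen, had 7.37 and 5.43 at 24 h, against 10.69 and 10.86 in DMSO; it was above background on 1 of the 24 h arrays, and its log2 fold change was -5.34 without 24 h replicate 1 and -3.40 without 24 h replicate 2. PLA2G3, a secreted phospholipase, was above background on neither 24 h array and at least 4.49-fold lower. PHLDA2, an imprinted growth regulator, was 15.7-fold lower, and VIPR1, a receptor for vasoactive intestinal peptide, and OLIG2, a neural lineage factor, were 15.4-fold and 13.4-fold lower.

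Lipid synthesis genes were lower. Cells make cholesterol from acetyl-CoA through HMG-CoA, mevalonate and lanosterol, and the transcription factors SREBP1 and SREBP2 govern the enzymes of this route and of fatty acid synthesis. HMGCS1, which makes HMG-CoA, had 11.42 and 11.64 at 24 h, against 14.92 and 13.79 in DMSO (7.08-fold lower, log2 fold change -2.82, SE 0.30, adjusted p = 3.37e-05). CYP51A1, the demethylase of lanosterol, was 9.24-fold lower (SE 0.27), FDPS, farnesyl diphosphate synthase, 5.26-fold lower (SE 0.21) and DHCR7, which acts in the last steps, 5.21-fold lower (SE 0.23). MSMO1, a sterol methyl oxidase, was 6.84-fold lower by its brightest probe, with 2 of its 3 probes in this direction. Of 18 tested sterol genes 12 fell and none rose, at a median of -1.51, and between 11 and 15 fell without any single array.

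In fatty acid synthesis 8 of 10 fell and none rose, at a median of -0.95. FASN, fatty acid synthase, had 13.51 and 13.85 at 24 h, against 15.42 and 15.94 in DMSO, with no overlap between the groups (SE of the log2 fold change 0.24, adjusted p = 7.03e-05). Its raw signals in DMSO, 68537 and 70088, lay near the top of the scale. ELOVL6, which lengthens fatty acids, was 2.95-fold lower, and its log2 fold change of -1.56 was -0.93 without DMSO replicate 1. With array weights 6 of the 8 stayed below 0.05. The members that did not pass were ACSL1 (-0.16) and ME1 (-0.38).

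Cell division genes were lower in nearly every case measured. UBE2C, the ubiquitin-conjugating enzyme of the anaphase-promoting complex, had 8.62 and 8.99 at 24 h, against 11.98 and 12.43 in DMSO (10.6-fold lower, log2 fold change -3.40, SE 0.20, adjusted p = 3.41e-07). NEK2, a centrosome kinase, was 9.66-fold lower (SE 0.28) and above background on 1 of the 24 h arrays. AURKB, the kinase of the chromosomal passenger complex, was 9.06-fold lower (SE 0.22), CCNB1, cyclin B1, 6.77-fold (SE 0.19), CDC20, an activator of the anaphase-promoting complex, 6.60-fold (SE 0.20) and CDK1, the kinase that cyclin B1 activates, 5.98-fold (SE 0.18). PLK1, polo-like kinase 1, was above background on neither 24 h array and at least 3.78-fold lower. Of 57 tested genes of G2 and mitosis 51 fell, none rose and 6 did not pass, at a median of -1.89. Without any single array between 42 and 49 fell, and 43 did with array weights. In a bulk sample fewer dividing cells and less transcript per cell cannot be told apart.

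MKI67, the proliferation marker Ki-67, was a weak case. It had 6.40 and 6.49 at 24 h, against 7.60 and 7.10 in DMSO, and was above background on neither 24 h array and on 1 DMSO array, so the fall was at least 1.07-fold. Its adjusted p of 0.0396 became 0.149 without 24 h replicate 1, 0.137 without 24 h replicate 2 and 0.188 without DMSO replicate 1. TOP2A, topoisomerase II alpha, was 8.38-fold lower although its DMSO arrays stood apart, with 8.13 and 8.07 at 24 h, against 12.00 and 10.34 in DMSO.

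DNA replication genes fell as well. CDC45, a part of the replicative helicase, had 8.25 and 8.07 at 24 h, against 11.32 and 11.38 in DMSO (9.13-fold lower, log2 fold change -3.19, SE 0.18, adjusted p = 2.3e-07). MCM10, which activates that helicase, was above background on neither 24 h array and at least 5.14-fold lower. RRM2, the regulated subunit of ribonucleotide reductase, was 7.55-fold lower (SE 0.37) and above background on 1 of the 24 h arrays. EXO1, an exonuclease of replication and mismatch repair, was 6.67-fold lower (SE 0.20), UHRF1, which guides maintenance of DNA methylation, 5.62-fold (SE 0.19), CDT1, a licensing factor of origins, 5.26-fold (SE 0.25) and MCM7, a helicase subunit, 3.99-fold (SE 0.17). Of 50 tested genes of replication and G1/S 31 fell and none rose, at a median of -1.02, and 26 to 34 fell without any single array. Among recombination and Fanconi anaemia genes 10 of 22 fell and none rose, at a median of -0.70. FANCI, above background on 1 of the 24 h arrays, was 5.09-fold lower and RAD54L 4.08-fold lower, but array weights left 4 of those 10 calls, and without 24 h replicate 2 there were 5.

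LMNB1, lamin B1, whose loss is used as a marker of senescence, was 4.07-fold lower. It had 7.59 and 7.51 at 24 h, against 9.59 and 9.56 in DMSO (log2 fold change -2.02, SE 0.21, adjusted p = 2.14e-05). TMPO, a lamina-associated protein, was 2.59-fold lower (SE 0.27). HMGB3, a chromatin protein of the HMGB family, was 2.53-fold higher (SE 0.16). The log2 fold change of HMGB1 was -1.09 (adjusted p = 0.0382), with neither 24 h array above background and a fall of at least 1.73-fold. HMGB2 had -0.86 (adjusted p = 0.0415). The HMGB1 call was lost without each of the 4 arrays in turn, at adjusted p values of 0.0929 and 0.194 without 24 h replicates 1 and 2 and 0.147 and 0.0546 without DMSO replicates 1 and 2. That of HMGB2 was lost without 24 h replicate 1 (0.12), 24 h replicate 2 (0.182) and DMSO replicate 1 (0.265, with a log2 fold change of -0.37). Of 9 tested genes of the list 1 rose and 5 fell.

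CDK inhibitors and their G1 targets had no common direction: 2 of 14 rose and 4 fell, CCND1 among them. CDKN1C, which encodes p57, was 2.57-fold higher (log2 fold change 1.36, SE 0.24, adjusted p = 0.0014), with 8.82 and 8.92 at 24 h and 7.21 and 7.80 in DMSO. CDKN1A, which encodes p21, had a log2 fold change of -0.55 (adjusted p = 0.0309) that rested on a signal near the top of the scale: raw values were 51367 and 41233 at 24 h, against 70573 and 70970 in DMSO. Its call was lost without 24 h replicate 1 (0.126), 24 h replicate 2 (0.137) and DMSO replicate 2 (0.0568). CDKN1B, which encodes p27, had a log2 fold change of 0.69 by its brightest probe (adjusted p = 0.0328; 0.266 without 24 h replicate 2 and 0.121 without DMSO replicate 2) whereas averaging its 2 probes gave -0.01. CDK6 had 9.25 and 9.70 at 24 h, against 11.87 and 9.94 in DMSO, so that its log2 fold change of -1.43 was -0.47 without DMSO replicate 1 (adjusted p = 0.222) and -2.40 without DMSO replicate 2, and the call was also lost without 24 h replicate 1 (0.178) and 24 h replicate 2 (0.085). CDKN2A, the p16 and ARF locus, did not pass (-0.88, adjusted p = 0.101), but did with median scaling (-1.19, 0.0107), as the mean of its probes (-0.80, 0.0373) and with a replicate block (0.00408). Leaving out DMSO replicate 2 gave -0.53 for it, and leaving out 24 h replicate 1 gave -0.59.

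Promoters of the mitotic and replication genes were searched for known cell cycle elements. The cell cycle genes homology region, TTTGAA on either strand, is an element through which the DREAM complex is known to repress mitotic genes in resting cells. RefSeq promoters of GRCh38.p14, from 250 bases before to 50 after each gene start, were found for 46 of the tested mitotic genes. The letters were present in 33 of these 46 (71.7%) and in 32 of the 42 with a call, against 15.4% of 27305 promoters of all genes. Within 50 bases of the start they were present in 27 of the 42 called genes (64.3%), against 4.67% of all promoters. That window was chosen after the matches were seen. The E2F site TTTCCCGC, on either strand, was present in 11 of 42 promoters of tested replication genes (26.2%), all 11 among the 28 with a call, against 1.66% of all. A match is a description of sequence, not a bound site. The last 100 bases before the start are shown for 4 mitotic and 2 replication genes that fell, chosen because a match lies inside them, with the matched letters in capitals, as CCNB2 (cyclin B2, 4.58-fold lower), PLK1, CDC20, MKI67, CDT1 and UHRF1.
CCNB2 (chr15:59105046-59105145, plus strand): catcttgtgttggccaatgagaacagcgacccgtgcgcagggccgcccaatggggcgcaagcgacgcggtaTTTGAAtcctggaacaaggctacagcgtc
PLK1 (chr16:23678789-23678888, plus strand): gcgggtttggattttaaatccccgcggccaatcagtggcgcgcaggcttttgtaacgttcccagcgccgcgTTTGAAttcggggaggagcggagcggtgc
CDC20 (chr1:43358881-43358980, plus strand): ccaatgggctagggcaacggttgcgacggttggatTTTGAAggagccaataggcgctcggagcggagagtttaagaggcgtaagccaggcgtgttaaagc
MKI67 (chr10:128126424-128126523, minus strand): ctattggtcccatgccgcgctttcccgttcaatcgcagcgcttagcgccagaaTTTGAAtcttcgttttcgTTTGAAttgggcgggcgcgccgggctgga
CDT1 (chr16:88803689-88803788, plus strand): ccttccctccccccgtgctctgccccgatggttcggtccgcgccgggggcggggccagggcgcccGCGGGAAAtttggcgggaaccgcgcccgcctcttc
UHRF1 (chr19:4909401-4909500, plus strand): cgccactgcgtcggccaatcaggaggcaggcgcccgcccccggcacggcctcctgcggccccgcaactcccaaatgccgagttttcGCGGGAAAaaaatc

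In CCNB2 and PLK1 the match begins 29 bases before the start, and MKI67 holds 2 matches, the first of which begins 47 bases before it. In CDT1 and UHRF1 the capitals are the E2F letters read on the other strand, 35 and 14 bases before the start.

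**Figure D3:**
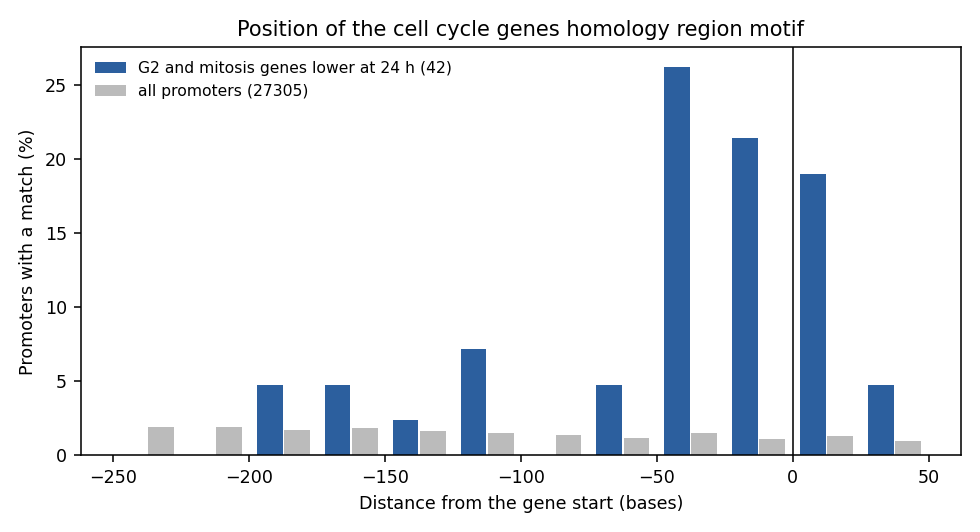
Share of promoters (vertical axis, percent) with the letters of the cell cycle genes homology region on either strand, by distance of the match from the gene start in bins of 25 bases (horizontal axis); blue bars are the 42 mitotic genes called lower at 24 h and grey bars all 27305 promoters. The blue bars are highest between -50 and 25, at 26.2%, 21.4% and 19%, where the grey bars lie at 1.49%, 1.13% and 1.27%.

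Cell cycle genes were also lower at 24 h than at 12 h of PLX4720, a comparison that holds no DMSO array. The DMSO arrays enter it only through the normalization and the pooled spread. Between these times 1367 genes differed (10.1%), 741 higher (5.47%) and 626 lower (4.62%). Of 57 mitotic genes 54 fell and none rose, at a median of -2.78, and of 50 replication genes 36 fell and none rose, at a median of -1.25. UBE2C had 8.62 and 8.99 at 24 h, against 13.31 and 13.15 at 12 h (21.5-fold lower, log2 fold change -4.43, SE 0.20, adjusted p = 8.33e-08). TOP2A was 21.8-fold lower (SE 0.38), CDC45 12.1-fold (SE 0.18), CCNB1 7.80-fold (SE 0.19) and LMNB1 5.63-fold (SE 0.21). At 12 h against DMSO, where 15.7% of genes were called and 8.13% were higher, UBE2C had a log2 fold change of 1.02 and TOP2A one of 1.38, both of which passed. CDC45 had 0.41 and LMNB1 0.47 there, and neither passed. That comparison shares the DMSO arrays with 24 h against DMSO.

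Genes of amino acid supply and stress under ATF4, a transcription factor translated when its upstream kinases sense stress, were higher in 13 of 27 cases and lower in 1. SLC7A11, the cystine transporter, had 10.84 and 11.02 at 24 h, against 8.80 and 8.93 in DMSO (4.19-fold higher, log2 fold change 2.07, SE 0.18, adjusted p = 7.41e-06). ATF3, a stress-induced factor, was 4.93-fold higher (SE 0.18), NUPR1, a small stress-induced chromatin protein, 4.83-fold (SE 0.19) and SLC3A2, the partner subunit of SLC7A11, 2.68-fold (SE 0.18). PSAT1, of serine synthesis, was 1.87-fold higher and ASNS, asparagine synthetase, 1.79-fold higher. With median scaling, and with the 24 h and DMSO arrays alone, their adjusted p values were above 0.05. As the mean of its probes ASNS did not pass (log2 fold change 0.44, adjusted p = 0.0864). TRIB3, a pseudokinase that restrains ATF4, went the other way and was 2.63-fold lower (SE 0.22). The median over the 27 was 0.70, and between 12 and 14 rose without any single array. Cytosolic heat shock proteins had 2 of 15 rising and 2 falling (13.3% each), near the shares of all genes. CRYAB, a small heat shock protein of the lens and muscle, was 3.26-fold higher (SE 0.25). Of 15 tested chaperones of the endoplasmic reticulum none rose and 1 fell.

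NRF2 targets, which make glutathione and clear oxidants, were higher in 10 of 18 cases with none lower, at a median of 0.58. HMOX1, heme oxygenase 1, had 9.57 and 9.68 at 24 h, against 7.66 and 8.32 in DMSO (3.11-fold higher, log2 fold change 1.64, SE 0.22, adjusted p = 0.000221). GCLM, the modifier subunit of glutamate-cysteine ligase, was 2.81-fold higher (SE 0.21). AKR1B10, an aldo-keto reductase, was above background on neither DMSO array and at least 2.69-fold higher. SLC7A11 is on this list too. With median scaling 5 of 18 rose, and with array weights 7. At 24 h against 12 h, 7 of 18 NRF2 targets fell and 1 rose, and 7 of 27 ATF4 genes fell and 2 rose, the others not passing. HMOX1 was 4.21-fold lower at 24 h than at 12 h (SE 0.22) and GCLM 3.32-fold lower (SE 0.21).

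The letters TGATGNAA of an ATF4 and C/EBP response element, on either strand, were present in 5 of 23 promoters of tested ATF4 genes (21.7%), against 3.67% of all promoters, and a match to the antioxidant response element, on either strand, in 1 of 12 promoters of tested NRF2 targets (8.33%), against 3.26%. The sterol regulatory element TCACNCCAC, on either strand, was present in 1 of 18 sterol promoters (5.56%), against 1.15%, and in 0 of the 12 whose genes were called. Of called genes with a promoter, 3 of 12 in the ATF4 list and 1 of 5 among NRF2 targets held their element. ASNS and GCLM are shown because both rose and a match, in capitals, lies within the last 100 bases before the start.
ASNS (chr7:97872409-97872508, minus strand): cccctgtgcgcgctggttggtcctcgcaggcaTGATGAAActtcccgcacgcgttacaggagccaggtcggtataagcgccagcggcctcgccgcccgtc
GCLM (chr1:93909431-93909530, minus strand): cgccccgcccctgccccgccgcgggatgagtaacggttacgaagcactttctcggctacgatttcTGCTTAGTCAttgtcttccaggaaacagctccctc

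Genes with large rises in fitted signal were of mixed kinds, again with no order given to a probe not above background in DMSO. CRYGS, a gamma crystallin known from the lens, had 11.69 and 11.96 at 24 h, against 7.12 and 6.12 in DMSO, where it was not above background. It was at least 24.9-fold higher (log2 fold change 5.21, SE 0.27, adjusted p = 1.6e-07). DIPK1C, a kinase-like gene, had 11.76 and 11.82 at 24 h, against 6.92 and 7.77 in DMSO, and was 21.7-fold higher (SE 0.24), being above background on 1 DMSO array. RAP1GAP, which switches off the small GTPase RAP1, was 10.9-fold higher (SE 0.21). BEX1 was 10.9-fold higher (SE 0.28), the forkhead factor gene FOXQ1 10.7-fold (SE 0.22), the small heat shock protein gene HSPB3 9.30-fold (SE 0.25) and MYLK, myosin light chain kinase, 8.63-fold (SE 0.20). ALDH3A1, an aldehyde dehydrogenase, and SLC40A1, the iron exporter ferroportin, were above background on neither DMSO array. ALDH3A1 was at least 6.66-fold higher and SLC40A1 at least 2.81-fold. NEFL, the light neurofilament, FOXD3, a neural crest factor, and CD36, a receptor for fatty acids, were 6.41-fold, 4.17-fold and 4.55-fold higher.

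ID proteins bind basic helix-loop-helix factors and hold back differentiation, and BMP signals are known to induce them. ID3 had 11.88 and 12.04 at 24 h, against 8.06 and 8.74 in DMSO (11.8-fold higher, log2 fold change 3.56, SE 0.22, adjusted p = 4.99e-07). ID2 was 4.49-fold higher (SE 0.24) and ID1 2.48-fold (SE 0.21). SMAD6, an inhibitory SMAD, was 2.77-fold higher (adjusted p = 0.0088; 0.0703 without 24 h replicate 2). SMAD7, the other inhibitory SMAD, was 2.10-fold lower (SE 0.20) and BAMBI, a decoy receptor of the same pathway, 1.87-fold lower (SE 0.18). Of 7 tested genes 4 rose and 2 fell.

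PPARGC1A, the coactivator of mitochondrial biogenesis, rose, while most respiratory subunit genes did not pass. It had 11.44 and 11.61 at 24 h, against 9.53 and 8.63 in DMSO (5.44-fold higher, log2 fold change 2.44, SE 0.26, adjusted p = 2.57e-05), and the value was 1.99 without DMSO replicate 2 and 2.90 without DMSO replicate 1. ESRRA, the nuclear receptor it works with on respiratory promoters, was 2.00-fold higher (SE 0.21, adjusted p = 0.00495). CYCS, cytochrome c, was 3.09-fold higher (log2 fold change 1.63, SE 0.23, adjusted p = 0.000291), with 10.79 and 10.69 at 24 h and 9.38 and 8.84 in DMSO. TFB1M, which methylates mitochondrial ribosomal RNA, was 2.62-fold lower (SE 0.20). TFAM, which packages mitochondrial DNA, did not pass (0.85, adjusted p = 0.0664), with 10.50 and 10.79 at 24 h against 10.32 and 9.27 in DMSO. It passed with no background correction (adjusted p = 0.0455) and with a trended robust eBayes (0.0455). Its log2 fold change was 1.38 without DMSO replicate 1 and 0.32 without DMSO replicate 2. Whether TFAM passed also changed with the DMSO array left out.

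Among nuclear-encoded subunits, 9 of 35 of complex I rose, 2 of 12 of complexes II and III with cytochrome c, 1 of 11 of complex IV and 4 of 15 of complex V, with none falling. The medians were 0.37, 0.54, 0.37 and 0.43, all above the 0.09 of all genes. These counts depended on the scaling. With median scaling 1, 1, 0 and 0 rose, at medians of 0.01, 0.23, -0.06 and -0.01 beside -0.12 for all genes, and with array weights 1, 1, 0 and 0. NDUFA6 of complex I was 2.14-fold higher (log2 fold change 1.10, SE 0.20, adjusted p = 0.00199) and kept its call with array weights (0.0225) but not with median scaling (0.0647). ATP5PF of complex V was 1.82-fold higher (adjusted p = 0.00571; 0.065 without 24 h replicate 2). The DMSO arrays stood 0.147 below and above their own mean in the median of complex I, against 0.326 and 0.395 on the 24 h arrays.

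Fuel enzymes upstream of the chain were higher in some cases. IDH3A, of the tricarboxylic acid cycle, had 11.41 and 11.71 at 24 h, against 10.15 and 10.01 in DMSO (2.79-fold higher, SE 0.18, adjusted p = 7.82e-05). MDH1, the cytosolic malate dehydrogenase, which was counted in the cycle list although it acts outside mitochondria, was 2.01-fold higher. Of 19 cycle genes 5 rose and none fell, and 1 rose with median scaling. In fatty acid oxidation 7 of 18 rose and 1 fell, at a median of 0.61. ETFDH, which passes electrons to ubiquinone, was 2.13-fold higher (SE 0.16), ETFB, an electron transfer flavoprotein subunit, 2.11-fold and DECR1, a dienoyl-CoA reductase, 2.02-fold. With median scaling 2 of the 18 rose and with array weights 3. Of 57 mitochondrial ribosomal proteins 7 rose and 1 fell, a share near that of all genes, and with median scaling 0 rose and 4 fell.

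Glycolysis had 2 of 23 genes higher and 2 lower (8.7% each), near the 10.6% and 8.52% of all genes. HK2, hexokinase 2, was 2.96-fold higher (log2 fold change 1.57, SE 0.16, adjusted p = 2.36e-05), with 13.34 and 13.21 at 24 h and 11.69 and 11.73 in DMSO. SLC2A3, a glucose transporter, was 2.65-fold lower (SE 0.17) and ALDOC, an aldolase, 2.00-fold lower (SE 0.21). IRS2, an insulin receptor substrate under FOXO control, was 2.02-fold higher (SE 0.18). TXNIP, an inhibitor of glucose uptake, did not pass (-0.07, adjusted p = 0.819) and was 0.13 without 24 h replicate 1. Of 16 genes of the insulin and FOXO axis 2 rose and 1 fell, and of 19 hypoxia genes 3 rose and 1 fell, DDIT4, an inhibitor of mTORC1, being 2.43-fold higher (SE 0.20).

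**Figure D4:**
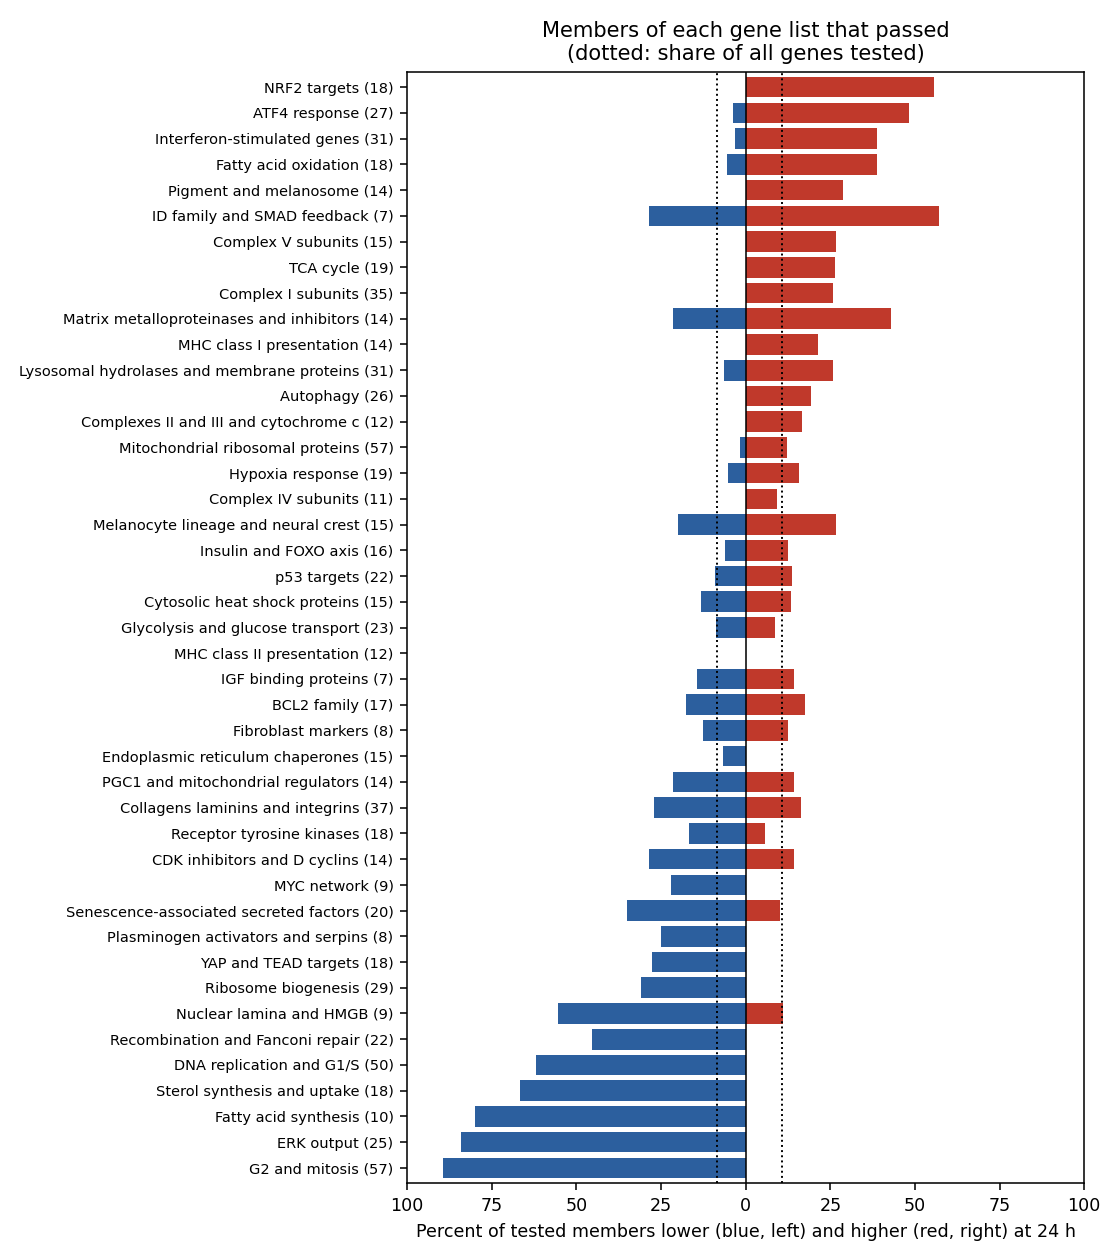
Percent of the tested members of each gene list called lower (blue, left) and higher (red, right) at 24 h against DMSO, for each list with at least 7 tested genes, whose number is in parentheses. Dotted lines mark 8.52% and 10.6%, the shares of all genes called lower and higher; mitotic genes (51 of 57 lower) lie at the bottom and NRF2 targets (10 of 18 higher) at the top.

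Of 14 pigment genes 4 were higher at 24 h than in DMSO and none lower, at a median of 0.37. MITF, the master factor of melanocytes, had 11.23 and 11.05 at 24 h, against 11.01 and 10.03 in DMSO, and did not pass (0.62, adjusted p = 0.127). It passed as the mean of its probes (0.83, adjusted p = 0.0143). Its log2 fold change was 1.11 without DMSO replicate 1 and 0.13 without DMSO replicate 2. Whether MITF passed changed with the DMSO array left out. SOX10, a lineage factor upstream of MITF, did not pass (0.53, adjusted p = 0.123). Its log2 fold change was 0.86 without DMSO replicate 2 and 0.20 without DMSO replicate 1. The result for SOX10, too, changed with the DMSO array left out. PMEL, the fibril protein of melanosomes, had 7.44 and 7.18 at 24 h, against 6.97 and 7.62 in DMSO, which overlap. TYR and MLANA, defining melanocyte genes, were above background on none of the 4 arrays, although TYR is 1 of the 4 genes called higher. MLPH, which links melanosomes to their motor, was 2.32-fold higher (log2 fold change 1.21, SE 0.18, adjusted p = 0.000408). SNAI2, a neural crest factor, was 3.01-fold higher (SE 0.27). S100B, a calcium-binding melanoma marker, was 3.88-fold lower (SE 0.29), and TFAP2B, of the AP-2 family, was above background on neither 24 h array and at least 2.07-fold lower. NGFR, the low-affinity nerve growth factor receptor, was 2.27-fold higher at an adjusted p of 0.0149, which became 0.0719 without 24 h replicate 1, 0.0764 without 24 h replicate 2 and 0.0835 without DMSO replicate 1. Of 15 lineage genes 4 rose and 3 fell.

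Lysosomal genes had 8 of 31 higher and 2 lower, at a median of 0.42. CTSK and CTSL, cathepsin proteases, were 2.41-fold (SE 0.16) and 2.08-fold higher (SE 0.18). NPC1, which moves cholesterol out of lysosomes, was 1.70-fold lower (adjusted p = 0.00976; 0.11 without 24 h replicate 2). With median scaling 2 rose and 3 fell. At 24 h against 12 h 8 of 31 rose and 1 fell, and this count was 3 and 0 with median scaling. Among autophagy genes 5 of 26 rose and none fell, with 1 rising under median scaling or array weights. ATG4A, a protease of autophagosome formation, was 2.23-fold higher (SE 0.24).

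Interferon-stimulated genes were higher in 12 of 31 cases and lower in 1, at a median of 0.52. IFI27 had 9.24 and 9.47 at 24 h, against 6.78 and 6.91 in DMSO, where it was not above background, and was at least 4.47-fold higher (log2 fold change 2.51, SE 0.18, adjusted p = 1.43e-06). IFI44L, above background on 1 DMSO array, was 7.49-fold higher by its brightest probe (SE 0.32). By its brightest probe above background on all 4 arrays, its log2 fold change was 0.30 (adjusted p = 0.279). ISG15, a ubiquitin-like modifier, MX1, an antiviral GTPase, and IFIT3, which binds foreign RNA with its relatives, were 3.39-fold (SE 0.32), 3.30-fold (SE 0.30) and 3.19-fold higher (SE 0.23). BST2, tetherin, was 3.72-fold lower (SE 0.32). With median scaling 9 of 31 rose and 3 fell, and 8 to 14 rose without any single array. MHC class I genes had 3 of 14 higher and none lower, led by the immunoproteasome subunits PSMB10 and PSMB9 at 1.99-fold and 1.97-fold. The PSMB10 call was lost without 24 h replicate 2 (0.082), that of PSMB9 without 24 h replicate 1 (0.0585) and without 24 h replicate 2 (0.0588), and with median scaling no class I gene passed. The log2 fold change of PSMB9 was 0.59 without DMSO replicate 1.

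Secreted factors of senescent cells were lower more often than higher, with 7 of 20 falling and 2 rising at a median of -0.51. CXCL8, interleukin 8, had 7.01 and 6.89 at 24 h, where it was not above background, against 10.30 and 9.33 in DMSO, and was at least 5.91-fold lower (log2 fold change -2.87, SE 0.29, adjusted p = 2.23e-05). GDF15, a stress cytokine, was 2.97-fold lower (SE 0.18). CCL2, a monocyte chemokine, had 14.27 on both 24 h arrays, against 12.08 and 12.40 in DMSO, a 4.08-fold rise (SE 0.17). IL6 had a log2 fold change of 0.65 (adjusted p = 0.0452), which was lost without 24 h replicate 1 (0.208), 24 h replicate 2 (0.112) and DMSO replicate 1 (0.145). SERPINA3, a protease inhibitor, was 6.56-fold lower (SE 0.23) and PLAT, tissue plasminogen activator, 2.69-fold lower (SE 0.19). SERPINA3 and PLAT were the 2 of 8 tested plasminogen activators and serpins that fell, and none rose.

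Matrix genes were divided. Among metalloproteinases and their inhibitors 6 of 14 rose and 3 fell, MMP7 being at least 1.68-fold higher over DMSO arrays on which it was not above background. THBS1, thrombospondin 1, was higher (log2 fold change 2.38, SE 0.20, adjusted p = 5.51e-06), with 15.77 and 15.66 at 24 h and 13.59 and 13.08 in DMSO. On the normalized scale its 24 h values lay between those of FASN in DMSO, so the top of the scale may limit the measured rise. ITGB8, an integrin that activates TGF-beta, was 2.85-fold higher (SE 0.26). ITGA6 and ITGA9, integrin alpha chains, were 3.57-fold (SE 0.27) and 3.46-fold lower (SE 0.20). Of 37 collagens, laminins and integrins 6 rose and 10 fell, and with median scaling 2 and 12. YAP and TEAD targets had 5 of 18 falling and none rising, CCN2, connective tissue growth factor, being 3.40-fold lower (SE 0.16) and FJX1 4.18-fold (SE 0.17). IGFBP5 was 2.07-fold lower (SE 0.19), and 1 of the other 6 tested IGF binding protein genes rose.

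Of 17 tested apoptosis regulators of the BCL2 family 3 were higher and 3 lower (17.6% each). Over all genes 10.6% were higher and 8.52% lower. BMF, a pro-apoptotic BH3-only protein, had 10.27 and 10.28 at 24 h, against 7.75 on both DMSO arrays (5.76-fold higher, log2 fold change 2.53, SE 0.18, adjusted p = 1.27e-06). PMAIP1, another BH3-only protein known as NOXA, was above background on neither 24 h array and at least 4.38-fold lower. BCL2, the anti-apoptotic founder, was 2.32-fold lower (SE 0.25). Of 22 p53 targets 3 rose and 2 fell (13.6% and 9.09%), near the shares of all genes. TP53I3, a quinone reductase, was 2.48-fold higher (SE 0.22). POLH, a translesion polymerase above background on 1 of the 24 h arrays, was 2.94-fold lower (SE 0.23). Of 18 receptor tyrosine kinases 1 rose (5.56%) and 3 fell (16.7%). DDR1, a collagen receptor, was 1.97-fold higher (adjusted p = 0.00494; 0.103 at most over the alternatives), and MET, the hepatocyte growth factor receptor, was 1.90-fold lower at 0.019, which became 0.0525 without 24 h replicate 1, 0.136 without 24 h replicate 2 and 0.103 without DMSO replicate 1, where its log2 fold change was -0.49.

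Ribosome biogenesis, a programme that MYC is known to drive, had 9 of 29 genes lower and none higher, at a median of -0.47. LYAR, a nucleolar factor, was 2.64-fold lower (log2 fold change -1.40, SE 0.16, adjusted p = 5.53e-05). With array weights 1 of the 29 fell, which was LYAR, and 2 fell without 24 h replicate 1 and likewise without 24 h replicate 2. In the MYC network 2 of 9 fell, MYC itself and MXD3, a MAX partner that was above background on neither 24 h array and at least 1.76-fold lower.

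**Figure D5:**
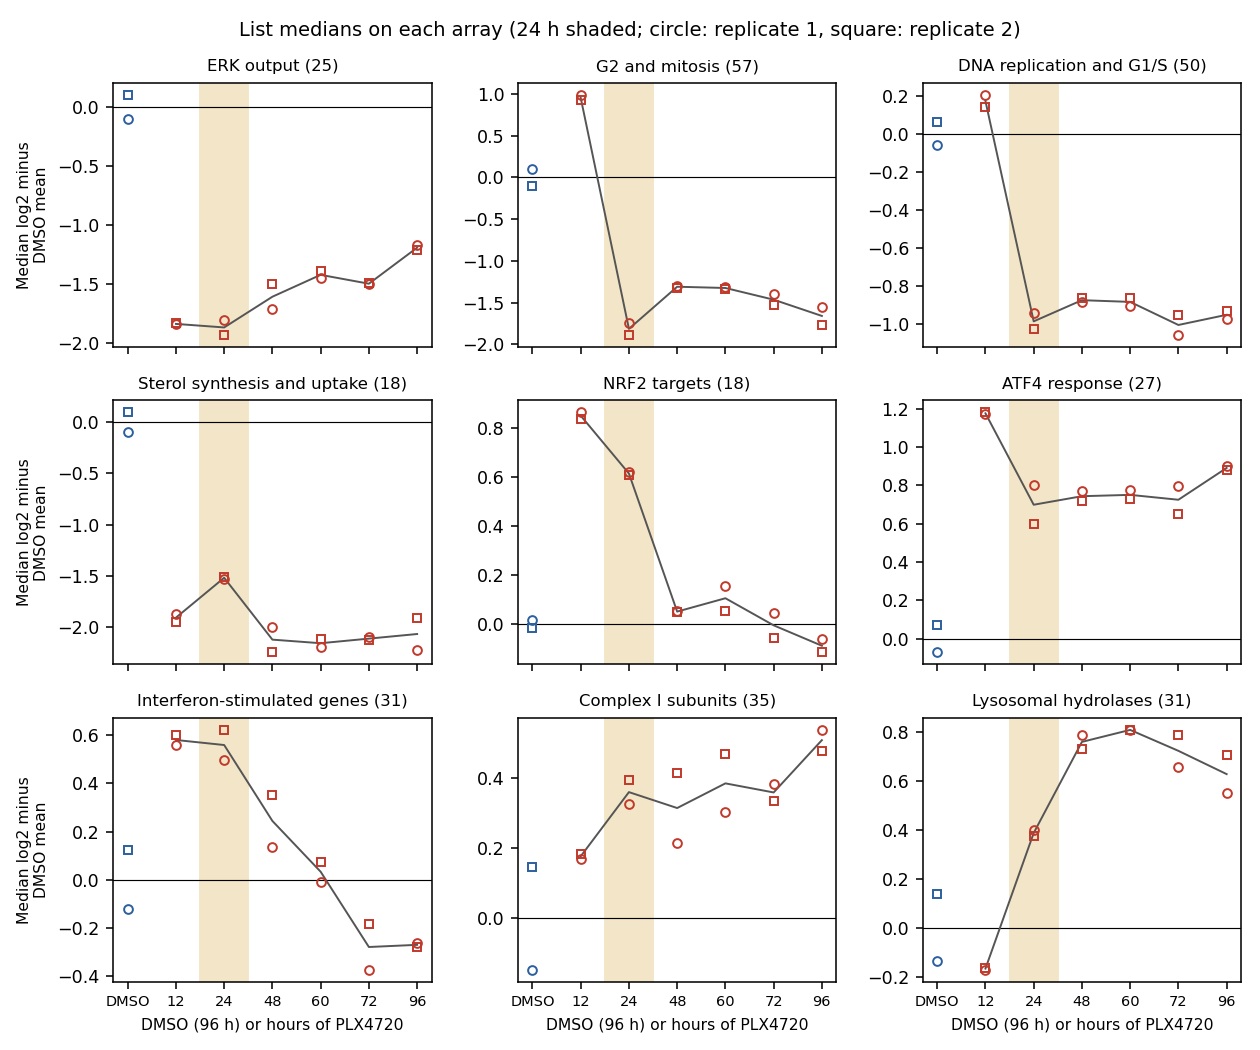
Median over the tested members of 9 gene lists of the log2 signal minus the mean of the DMSO arrays (vertical axis) on each array, for DMSO and for 12 to 96 h of PLX4720 (horizontal axis); circles are replicate 1, squares replicate 2, the line joins the means of the PLX4720 groups and 24 h is shaded. At 24 h the ERK list lies at -1.80 and -1.93 and the mitotic list at -1.74 and -1.89, whereas the mitotic list lies above 0 at 12 h.

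Set against its neighbours in time, 24 h differed from 12 h in 1367 genes, from 48 h in 669 (4.94%; 390 higher, 2.88%, and 279 lower, 2.06%) and from 96 h in 1812 (13.4%; 960 higher, 7.08%, and 852 lower, 6.29%). These comparisons share the 24 h arrays and hold no DMSO array. The DMSO arrays still enter their standard errors through the pooled spread, and the counts rose when either DMSO array was left out. Without 24 h replicate 1 the counts were 724, 250 and 863 against 12, 48 and 96 h, and without 24 h replicate 2 they were 636, 162 and 855. Median scaling gave 876 against 12 h and 352 against 48 h, and a replicate block gave 1095 against 48 h. Beside the cell cycle genes, P2RX7, an ATP-gated channel, had 12.30 and 12.39 at 24 h, against 9.39 and 9.29 at 12 h (7.99-fold higher, SE 0.17), and ANGPTL7, an angiopoietin-like secreted protein, was 7.37-fold higher (SE 0.16). CCL2 was 4.06-fold higher at 24 h than at 12 h (SE 0.17). ERK output had 2 of 25 genes higher and 2 lower at 24 h against 12 h.

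Against 48 h, CRYGS was 7.58-fold higher (SE 0.27) and ART3, an ADP-ribosyltransferase relative, 6.92-fold higher (SE 0.33), while NPTX1, a neuronal pentraxin, was 6.60-fold lower (SE 0.18) by its brightest probe. SORCS2, a sortilin relative, was not above background at 24 h and had 9.88 and 9.51 at 48 h. NRF2 targets had 8 of 18 genes higher at 24 h than at 48 h and none lower.

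Against 96 h of PLX4720, whose hours match the DMSO control, interferon-stimulated genes were higher at 24 h in 18 of 31 cases and lower in none, at a median of 0.97. ISG15 had 11.11 and 11.46 at 24 h, against 6.68 and 7.69 at 96 h (17.1-fold higher, log2 fold change 4.10, SE 0.32, adjusted p = 5.32e-06). The lower 96 h value lay below CXCL8 at 24 h, which was not above background, so the fold may rest partly on background. Over the alternatives the log2 fold change of ISG15 ran from 2.79 to 4.27. CRYGS was 22.7-fold higher (SE 0.27), with a log2 fold change from 3.27 to 4.64 over the alternatives. PMEL had 7.44 and 7.18 at 24 h, against 12.43 and 12.06 at 96 h, a 30.7-fold difference (SE 0.24), and was above background on 1 of the 24 h arrays. CXCL8 lay at 7.01 and 6.89 at 24 h, not above background, against 11.16 and 11.89 at 96 h. ERK output had 10 of 25 genes lower at 24 h than at 96 h and none higher, and LMNB1 did not differ beyond its error (-0.01, SE 0.21).

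Of 8 melanocyte markers 5 were above background on both arrays of each group, with summed normalized signals of 22884 to 25296 at 24 h and 15121 to 21504 in DMSO. Of 10 fibroblast markers 6 were above background on both 24 h arrays and 7 on both DMSO arrays, with summed normalized signals of 19120 to 19758 at 24 h and 25400 to 31551 in DMSO. Of 9 keratinocyte markers 3 and 1 were above background on both arrays (10390 to 12490 and 8660 to 11236), of 10 endothelial markers 1 and 1 (1178 to 1270 and 919 to 1008) and of 11 leukocyte markers 3 and 3 (16598 to 19472 and 15146 to 17965). Among the markers not above background on any of the 4 arrays were COL3A1, KRT5, CDH5 and PTPRC. TYR and MLANA, of the melanocyte markers, were likewise above background on none of them. CD2, of the leukocyte list, was called and 2.62-fold higher (SE 0.17), and DCN and COL1A2, of connective tissue, were 2.09-fold higher (SE 0.18) and 2.07-fold lower (SE 0.19). As the mean of its probes DCN did not pass (0.56, adjusted p = 0.0693). The part of such cells in the results was not tested.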

How the data were processed

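WM9 cells were lysed in TRI Reagent and their RNA was turned into biotin-labelled cRNA with an Ambion MessageAmp kit, per the labels' protocols, and hybridised to 1-colour Illumina arrays. The authors deposited unnormalized probe intensities, used here, and a table of normalized log2 values, used as an alternative. The sources used here give neither scanner nor software, and 28 further columns were empty. Intensities of 47322 probes on 14 arrays were background-corrected with normexp (saddle, offset 16), log2-transformed and quantile-normalized in limma 3.58.1 (R 4.3.3), since neqc needs control probes or detection p-values that were not used here. A probe was above background where its signal passed the mode of its array plus the upper 1% tail of a normal curve fitted below the mode. Of the probes, 30113 had 1 gene symbol, 8 several and 17201 none, and 30074 were matched to RefSeq by gene ID. Each of 13550 genes was represented by its brightest probe above background on at least 2 arrays.

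A linear model of 7 groups, with no replicate block, was fitted with lmFit and eBayes (residual degrees of freedom 7, prior 5.81). Two-sided tests were used, with Benjamini-Hochberg adjustment over all genes and a threshold of 0.05, and were checked on simulated data. "At least" folds compare the bright group with the lowest signal above background, or the dim probe's own signal where higher. Same-numbered replicates of 24 h and DMSO had deviations correlated at 0.0649 across genes. Between DMSO and other times this ran from -0.187 to 0.387 and between PLX4720 times from 0.15 to 0.378. No label pairs the numbers, so the fit has no block and a blocked fit is an alternative. Alternatives changed the background correction, scaling, probe filter, probe averaging, arrays fitted, array weights, block and eBayes options, and left out each array.

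Members and gene lists were chosen with earlier results of these data known. The rule for named genes took the 10 largest rises and 10 largest falls among called genes without overlap, the 2 largest of each within each list and in 24 h against 12, 48 and 96 h, and a set of genes of known role, and 39 more were named after their values were seen. Genes of the mitochondrial genome are not reported here. Promoters are RefSeq GRCh38.p14 sequences.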

Additional observations from a re-analysis of the deposited data

Results flagged for a closer look

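Of the genes the naming rule picked, 8 were called in opposite directions against DMSO at 24 h and at 12 h, which fixes the sign of the difference between 24 h and 12 h. That difference is therefore given as a description. Both comparisons with DMSO share the DMSO arrays. TOP2A had a log2 difference of -4.45 between 24 h and 12 h (SE 0.38), UBE2C -4.43 (SE 0.20), TMPO -2.51 (SE 0.27), MKI67 -1.80 (SE 0.28) and BAMBI -1.55 (SE 0.18), all lower at 24 h and, at 12 h, higher than in DMSO. P2RX7 had 3 (SE 0.17), ANGPTL7 2.88 (SE 0.16) and MLPH 2.52 (SE 0.18), all higher at 24 h and, at 12 h, lower than in DMSO. MKI67 was above background on neither 24 h array, so its size is not a measured fold.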

How the results depend on the processing

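Of 169 named genes called at 24 h against DMSO, 118 kept their call in each alternative that gave a value and 51 lost it in at least 1. With median scaling, an additive shift of log2 values, 549 genes were higher at 24 h than in DMSO, 876 differed from 12 h and 352 from 48 h. That scaling was first run by multiplying log2 values, and the form was changed after its results were seen, so the first form is given too, as an alternative chosen after seeing the data. It gave 859 higher genes against DMSO, 402 changed against 48 h and 0.33 for CDKN1A, against -0.55. With no filter on dim probes 908 genes differed from 12 h and 344 from 48 h. The 24 h and DMSO arrays alone gave 1223 genes, 566 higher and 657 lower, with 218 members of the lists called, against 337. Array weights gave 1188 genes, 611 higher and 577 lower, 211 list members, and 2158, 1460 and 2807 genes against 12, 48 and 96 h. With a replicate block 1095 genes differed from 48 h, and no named call was lost. Without any single array the count against DMSO ran between 1191 and 3090 (585 to 1850 higher, 606 to 1349 lower), list members between 215 and 355, and genes against 12, 48 and 96 h between 636 and 1994, 162 and 1358, and 855 and 2724. Without either DMSO array that group adds no residual to the fit. PMEL, which was not called, turned to -0.005 in the authors' table and ran from -0.31 to 0.34 without single arrays, TXNIP from -0.27 to 0.13, and CDKN1B was -0.0098 as a mean of probes. The cause of these shifts was not tested. Signals near background and near the top of the scale limit the folds.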
